A study of Mus musculus with 60 samples.

Results

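The CD4+ T cells of 9 T cell receptor (TCR) alpha libraries and 9 TCR beta libraries were compared between the liver at day 6 after allogeneic hematopoietic cell transplantation (HCT) and the spleen before HCT. These 18 samples, of 60 in the series, were chosen by their labels alone, and each chain was analysed on its own as 6 liver libraries against 3 spleen libraries. Donor T cells came from C57BL/6 mice of 3 genotypes: wild type (WT), STAT3ko, whose floxed Stat3 gene is deleted in T cells by a Cre recombinase under the CD4 promoter, and STAT3koPD-1ko, which is the same deletion on a background lacking PD-1. They were given together with T cell-depleted bone marrow of WT C57BL/6 mice to lethally irradiated WT BALB/c recipients, a mismatched pair in which donor T cells cause graft-versus-host disease. Each liver sample held lymphocytes combined from 3 recipients and sorted as donor-type H-2Kb+TCRβ+CD4+ cells, and each genotype had liver samples numbered 1 and 2 and a single spleen sample. The age and sex of the mice, and whether spleen and liver cells came from the same donors, are not given in the sources used here. Liver and day 6 always went together, as did spleen and the time before HCT, so tissue and transplantation cannot be told apart. In bulk libraries of this kind, fewer cells of a clone and less receptor RNA per cell cannot be told apart either.

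Each T cell makes its receptor by joining one variable (V) and one joining (J) segment in the alpha chain, and V, diversity (D) and J segments in the beta chain, with bases trimmed and added at the junctions. The junction encodes the third complementarity-determining region (CDR3), the loop that touches the peptide held by an MHC molecule, and for CD4+ cells that molecule is of class II. Many peptide-driven clones differ in CDR3 and share few V segments, while a superantigen, a protein that binds the side of particular V beta domains, engages most cells that use those segments. After transplantation across an MHC mismatch, many unrelated donor clones meet recipient antigens at once and enter the liver, one of the main targets of the disease.

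The deposited value of a clonotype was the fraction of a library's reads that carried its CDR3 amino acid sequence. The alpha table held 62533 clonotypes, of which 58640 were listed in at least 1 of the 9 CD4 alpha libraries, and the beta table held 85775, of which 80766 were listed in the 9 CD4 beta libraries. A clonotype had to be present in 2 or more of 18 joined libraries to enter a table. These accounted for 94.8% to 99.1% of the reads of an alpha library and for 85.6% to 97.2% of the reads of a beta library. The lowest listed share was that of liver number 2 WT in both chains. Between 8843 and 22620 alpha clonotypes and between 9117 and 23965 beta clonotypes were listed per library. The read depth is unknown, so no counting interval was possible. Usage below is the percentage of a library's listed frequency. The overlap of 2 libraries was taken as the sum over clonotypes of the smaller frequency. Between each CD4 library and the CD8 library of the same tissue, genotype and number, it was 2.98% to 5.43% for beta (median 4.45%). It was 2.59% to 5.85% with the other CD8 libraries (median 3.97%), and thus of similar size. For alpha it was 7.99% to 17.24% (median 13.06%), and 7.20% to 17.24% with the others (median 12.49%). Exchanging the CD4 and CD8 labels of a pair leaves this value unchanged, so it cannot check the CD4 label.

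Liver samples 1 and 2 stood apart from each other in what they shared with spleen, which bears on all results that follow. In the beta chain, liver number 1 overlapped with the spleen library of its own genotype by 43.2% in WT, 43.0% in STAT3ko and 55.0% in STAT3koPD-1ko (47.05% ± 6.88, SD, n = 3). Against spleens of the other genotypes, the overlap of liver number 1 was 4.88% to 7.65%. For liver number 2, the overlap with the spleen of its own genotype was 8.36%, 7.43% and 5.37% in the same order of genotypes, against a mean of 6.93% with spleens of the other genotypes. The spleens overlapped with each other by a mean of 5.76%, and livers 1 and 2 of one genotype by 8.58%. Thus each liver number 1 library shared much of its frequency with 1 particular spleen library, whereas liver number 2 was no nearer to the spleen of its own genotype than to the others. The alpha chain gave 51.7% ± 4.54 (SD, n = 3) for liver number 1 with its own spleen and 21.1% ± 3.73 (SD, n = 3) for liver number 2. Alpha overlap between libraries of other genotypes was higher than in the beta chain, at a mean of 19.3% for liver number 1. Per the study's methods the joined samples formed 2 batches of pooled mice, but which batch a sample belonged to is not given in the sources used here, so batch, donor source and liver number cannot be told apart.

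The clonotypes that headed the libraries show this directly. They are printed as the nucleotide sequence that the table gives for each, 5′ to 3′, from the first cysteine codon of the CDR3 to its last codon, with capitals for the bases between the end of the V and the start of the J segment, D bases included. In TRBV14-TRBJ1-2 the V end given, base 25, lies past the J start, base 21, so no capitals are shown. Whether it holds D or added bases cannot be read from the print. The first 3 below were the most frequent in the spleen of WT, STAT3ko and STAT3koPD-1ko, respectively.
TRBV14-TRBJ1-2: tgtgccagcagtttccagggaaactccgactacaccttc
TRBV13-1-TRBJ2-5: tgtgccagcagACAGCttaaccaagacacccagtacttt
TRBV13-1-TRBJ1-4: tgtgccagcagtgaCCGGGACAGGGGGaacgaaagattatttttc
TRBV14-TRBJ1-2 held 0.595% of the listed frequency in the WT spleen, 0.0944% in liver number 1 WT and 0 in liver number 2 WT. The frequency of TRBV13-1-TRBJ2-5 was 0.629% in the STAT3ko spleen, 0.197% in liver number 1 STAT3ko, and the other 7 libraries listed it at 0. For TRBV13-1-TRBJ1-4, it was 0.716% in the STAT3koPD-1ko spleen and 0.0445% in liver number 1 STAT3koPD-1ko, with the other 7 at 0 again. Each was therefore listed in the liver number 1 library of its genotype at a lower frequency than in spleen.

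The most frequent beta clonotypes of liver number 1 were already listed in the spleen of the same genotype at lower frequency, and those of liver number 2 were not listed in any spleen. They were picked for display after their values were seen, as the most frequent clonotypes with a complete CDR3, meaning one that starts with cysteine and ends with phenylalanine or tryptophan. The first 3 sequences head liver number 1 and the last 3 head liver number 2, each in the order WT, STAT3ko and STAT3koPD-1ko.
TRBV14-TRBJ2-1: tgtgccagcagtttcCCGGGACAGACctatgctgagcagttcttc
TRBV13-1-TRBJ1-3: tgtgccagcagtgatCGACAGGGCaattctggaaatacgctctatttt
TRBV16-TRBJ1-1: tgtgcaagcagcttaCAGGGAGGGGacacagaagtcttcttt
TRBV13-1-TRBJ2-7: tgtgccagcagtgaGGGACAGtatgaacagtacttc
TRBV29-TRBJ2-5: tgtgctagcGCAGaagacacccagtacttt
TRBV5-TRBJ2-2: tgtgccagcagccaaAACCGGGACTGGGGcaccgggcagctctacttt
TRBV14-TRBJ2-1 was at 0.261% in the WT spleen and at 0.415% in liver number 1 WT. TRBV13-1-TRBJ1-3 was at 0.0392% and 0.359% in the spleen and liver number 1 of STAT3ko, and TRBV16-TRBJ1-1 was at 0.0190% and 0.244% in those of STAT3koPD-1ko. In liver number 2, TRBV13-1-TRBJ2-7 held 0.378% in WT, TRBV29-TRBJ2-5 held 0.394% in STAT3ko and TRBV5-TRBJ2-2 held 0.365% in STAT3koPD-1ko, and all 3 were at 0 in the 3 spleens. These pairs of values rest on 1 library each and carry no test.

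An incomplete sequence was the most frequent beta entry in 5 of the 6 liver libraries. It is assigned to TRBV21 and TRBJ2-1, spans 6 residues that all lie within the J segment, and so does not identify a clone.
TRBV21-TRBJ2-1: tatgctgagcagttcttc
Its frequency was 0.414%, 0.535% and 0.349% in the spleens, 0.492%, 0.479% and 0.450% in liver number 1, and 0.432%, 0.366% and 0.521% in liver number 2, in the order WT, STAT3ko and STAT3koPD-1ko. The ranges of the 3 groups overlapped, and it ranked among the 10 most frequent entries of all 9 libraries.

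Among the listed clonotypes, liver repertoires were more even than spleen repertoires. The number of clonotypes needed to hold 50% of the listed beta frequency, counted from the most frequent, was 686, 678 and 548 in the WT, STAT3ko and STAT3koPD-1ko spleens. In liver number 1 it was 1484, 909 and 913, and in liver number 2 it was 2007, 1563 and 966. All 6 liver libraries were above all 3 spleen libraries, and the difference was 0.97 on the log2 scale (exact two-sided permutation test over 84 arrangements, p = 0.0238, Benjamini-Hochberg adjusted p = 0.0278 over 14 measures). In the alpha chain, the numbers were 645, 665 and 527 in the spleens, 1232, 827 and 845 in liver number 1, and 1457, 1275 and 848 in liver number 2. Again no liver library was as low as a spleen library, with a difference of 0.79 on the log2 scale (exact permutation test, p = 0.0238, adjusted p = 0.0278). These arrangements exchange libraries between genotypes. With the 27 arrangements that stay within genotype, the exact permutation test gave p = 0.0370 and adjusted p = 0.0471 in both chains. Each liver number had a higher mean than spleen on its own, by 0.76 and 1.19 on the log2 scale for numbers 1 and 2 in the beta chain and by 0.64 and 0.93 in the alpha chain. With 3 libraries against 3, an exact permutation test cannot go below p = 0.1, which is the value of all 4. The adjusted call was lost in both chains without the STAT3koPD-1ko spleen, liver number 1 WT or liver number 2 STAT3ko, where the log2 difference was between 0.68 and 0.92 and the highest adjusted p was 0.125.

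**Figure D1:**
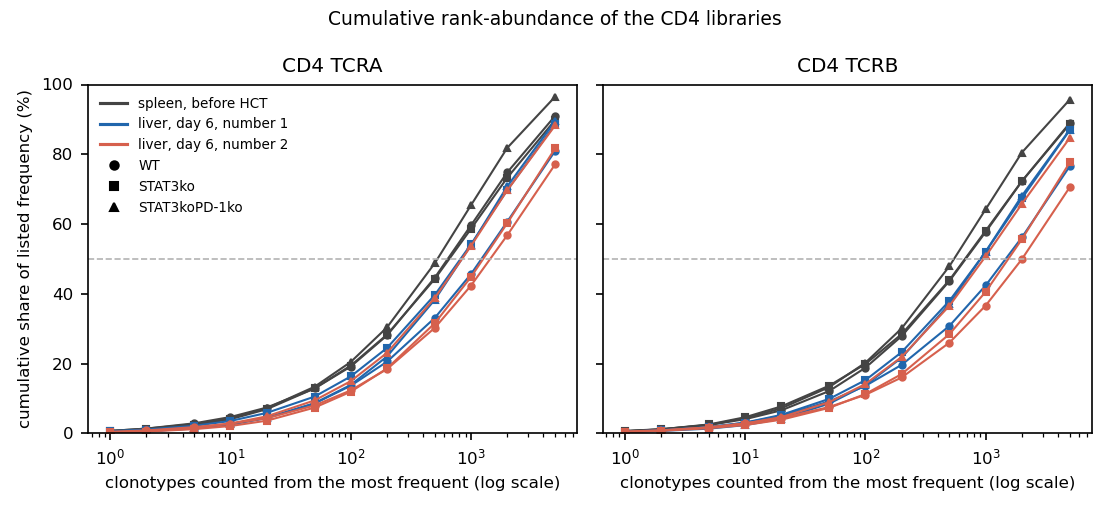
Cumulative share of the listed frequency (%) against the number of clonotypes counted from the most frequent (log scale), for the alpha (left) and beta (right) CD4 libraries, with colour for spleen, liver number 1 and liver number 2 and marker shape for genotype. The dashed line is at 50%, which the spleen curves cross at 527 to 665 alpha and 548 to 686 beta clonotypes, to the left of all liver curves.

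The other measures of rank and abundance moved the same way. The inverse Simpson number, an effective number of clonotypes that grows as frequencies become more even, was 1354 in spleen and 2617 in liver for beta, and 1316 and 2382 for alpha (exact permutation test, adjusted p = 0.0238 for both chains). The top 10 clonotypes held 4.35% of the beta frequency in spleen and 2.77% in liver, and 4.37% and 2.75% of the alpha frequency. For the top 100, the shares were 19.65% in spleen and 13.2% in liver for beta and 19.7% and 13.9% for alpha, and the adjusted p was 0.0238 for the top 10 and the top 100 in both chains by the exact permutation test. The top 1000 held 60.04% in spleen against 45.8% in liver for beta, and 61.2% against 49.1% for alpha (exact permutation test, adjusted p = 0.0278). The number of listed clonotypes did not pass the threshold, with means of 12464 in spleen and 17430 in liver for beta (exact permutation test, adjusted p = 0.0897) and of 12377 and 16819 for alpha (adjusted p = 0.119). That number also rises with the depth of a library, which is unknown. Clonotypes seen in a single library are absent from the joined tables and so from all these measures. Without the incomplete TRBV21-TRBJ2-1 entry, a choice made after its values were seen, the top 10 held 4.247% of the remaining beta frequency in spleen and 2.526% in liver, and the difference in the number holding 50% was 0.98 on the log2 scale (exact permutation test, adjusted p = 0.0278).

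A pair of V beta segments was used more in liver than in spleen. In a limma model with genotype as a term, 2 of 20 tested TRBV segments passed an adjusted p of 0.05 (10% of those tested), both higher in liver, and 5 had an unadjusted p under 0.05. TRBV26, the Vβ3 segment, was used by 4.45%, 5.68% and 4.45% of the frequency in the WT, STAT3ko and STAT3koPD-1ko spleens, by 9.715%, 8.18% and 7.12% in liver number 1, and by 12.4%, 8.99% and 8.15% in liver number 2. Its usage was therefore higher in each of the 6 liver libraries than in any spleen, with means of 9.09% ± 1.83 (SD, n = 6) and 4.86% ± 0.707 (SD, n = 3) and a log2 difference of 0.88 (SE 0.14, limma adjusted p = 0.001725). TRBV23, the Vβ20 segment, was used by 2.02%, 2.06% and 1.535% in the spleens, by 5.13%, 3.35% and 3.27% in liver number 1, and by 3.82%, 3.05% and 3.59% in liver number 2. Here too the groups did not overlap, and the log2 difference was 0.94 (SE 0.13, limma adjusted p = 0.001175). Of the 20 segments, these were the only 2 for which all livers lay above all spleens, and 0 had all livers below all spleens.

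Both differences were present with each liver number taken on its own. For number 1 over spleen, 2 of 20 segments passed (10%, with 5 at an unadjusted p under 0.05 by limma), TRBV23 with a log2 difference of 1.01 (adjusted p = 0.00283) and TRBV26 with 0.76 (adjusted p = 0.009401). Liver number 2 over spleen gave 3 of 20 that passed (15%), with TRBV26 at 0.99 (limma adjusted p = 0.00339), TRBV23 at 0.87 (adjusted p = 0.003954) and TRBV29, the Vβ7 segment, lower by 0.53 on the log2 scale, as its value was -0.53 (SE 0.12, adjusted p = 0.01324). The usage of TRBV29 was 3.67%, 3.46% and 4.01% in the spleens, 3.06%, 3.24% and 3.99% in liver number 1, and 2.17%, 2.85% and 2.60% in liver number 2. Liver number 1 thus overlapped with spleen for TRBV29 and liver number 2 did not, but the difference between the numbers did not pass the test (log2 difference -0.42, limma adjusted p = 0.1594). Between liver number 2 and liver number 1, 0 of 20 segments passed (0% of those tested) and 1 had an unadjusted p under 0.05. Without liver number 1 WT, TRBV26 in number 1 over spleen no longer passed (0.71, limma adjusted p = 0.0927), and the call of TRBV29 was lost without the WT spleen, the STAT3koPD-1ko spleen or liver number 2 WT (log2 differences of -0.45, -0.54 and -0.47, adjusted p = 0.08215, 0.06712 and 0.05252). When clonotypes had to be present in 3 or more libraries, TRBV26 alone passed in number 2 over spleen, with TRBV23 at 0.70 (limma adjusted p = 0.05121) and TRBV29 at -0.44 (adjusted p = 0.05188).

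**Figure D2:**
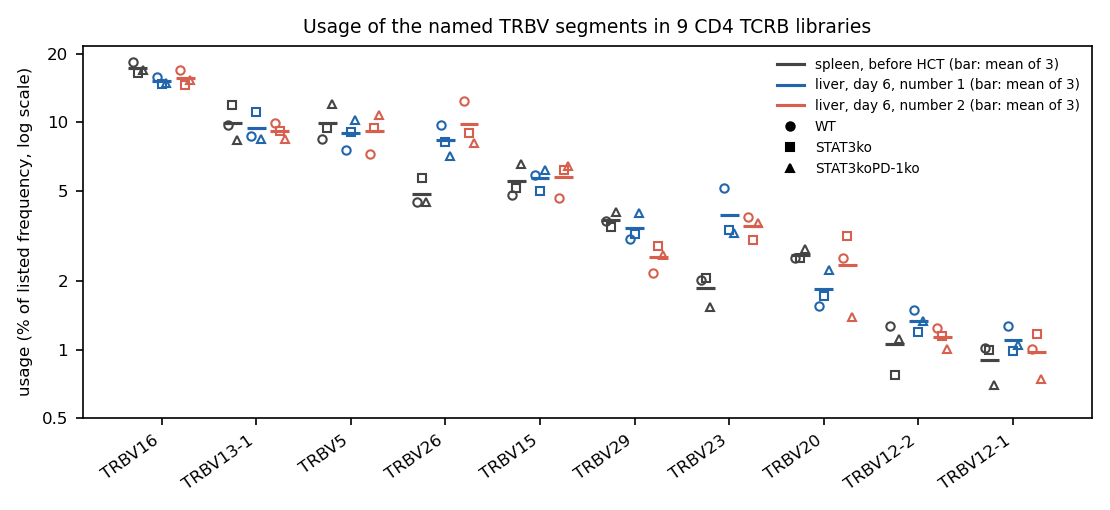
Usage of the named TRBV segments (% of listed frequency, log scale) in the 9 CD4 beta libraries, with 1 marker per library, shape for genotype and bars for the mean of 3 libraries. The liver markers of TRBV26 (7.12% to 12.4%) and of TRBV23 (3.05% to 5.13%) lie above those of spleen, while the groups overlap for TRBV5, TRBV13-1 and TRBV15.

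TRBV26 lies on chromosome 6 at 41227505 to 41227993 and TRBV23 at 41216073 to 41216526, both as V genes on the plus strand of GRCm38, near each other in the beta locus. TRBV29 lies further along at 41271394 to 41271881. The table writes TRBV26 in an unusual way, which its most frequent liver clonotype shows beside that of TRBV23, both picked after their values were seen. In the TRBV26 sequence the capitals mark the 63 bases that precede the cysteine codon at which the CDR3 of other segments begins.
TRBV26-TRBJ2-3: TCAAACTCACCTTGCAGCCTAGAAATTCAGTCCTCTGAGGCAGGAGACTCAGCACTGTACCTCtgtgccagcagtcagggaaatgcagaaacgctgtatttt
TRBV23-TRBJ2-1: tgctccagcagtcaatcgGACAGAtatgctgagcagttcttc
TRBV26-TRBJ2-3 held 0.0255% of the listed frequency in the STAT3ko spleen and 0.251% in liver number 1 STAT3ko, and TRBV23-TRBJ2-1 held 0.0187% in the WT spleen and 0.127% in liver number 1 WT. With those 21 residues removed, 17805 of 17815 TRBV26 clonotypes had a complete CDR3. Since the tables were joined on the CDR3 amino acids alone, a CDR3 reached by several V segments carries the name of 1 of them, and the segments differ in how far this can touch them. TRBV26 and TRBV23 begin with residues of their own, with 0.0136% and 0.00957% of their frequency starting with the residues CAS that open most other beta CDR3. After removal of the extra residues, 39.2% of TRBV26 clonotypes were also listed under another V segment, so TRBV26 was kept apart from other segments by the way it is written. Of the other segments, TRBV1 and TRBV20 also had 0% starting with CAS and were not called. Their log2 differences had opposite signs, higher in liver for TRBV1 and lower for TRBV20. Whether the naming of shared CDR3 bears on any call was not tested.

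The higher usage of TRBV26 and TRBV23 was spread over many clonotypes. TRBV26 had 1812, 2354 and 1411 clonotypes in the spleens, 3954, 2910 and 2833 in liver number 1, and 5479, 3721 and 3526 in liver number 2. As a share of all listed clonotypes of a library, these were 12.9% to 16.5% in spleen, 19.95% to 21.4% in liver number 1 and 20.5% to 22.9% in liver number 2. The most frequent TRBV26 clonotype held 2.70% to 3.36% of the segment's frequency in spleen, 0.592%, 3.06% and 1.28% in liver number 1 of WT, STAT3ko and STAT3koPD-1ko, and 0.650% to 0.892% in liver number 2. Liver number 1 STAT3ko thus overlapped with spleen in this measure. To hold 50% of the segment's frequency took a mean of 161.3 clonotypes in spleen, 474 in liver number 1 and 623.3 in liver number 2. For TRBV23, the number of clonotypes was 570, 735 and 410 in the spleens, 1258, 844 and 920 in liver number 1, and 1310, 948 and 1008 in liver number 2. Its largest clonotype held 14.4%, 4.38% and 5.24% of the segment in the WT, STAT3ko and STAT3koPD-1ko spleens, so that the WT spleen stood apart, 1.99% to 2.47% in liver number 1 and 1.865% to 2.47% in liver number 2. When each clonotype was counted once, whatever its frequency, both segments were still called higher, by 0.51 for TRBV26 and 0.40 for TRBV23 on the log2 scale. In that count 10 other segments of 21 were called lower, TRBV29 (-0.27), TRBV13-1 and TRBV5 among them, which is 12 calls (2 higher) in place of 2. The shares of a library sum to a fixed total, so higher shares of TRBV26 and TRBV23 by themselves lower those of other segments. How much of the lower calls this makes up was not tested.

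The liver usage of TRBV26 and TRBV23 was divided by whether a clonotype was listed in the spleen of its genotype. That division uses the spleen frequencies, and TRBV26 clonotypes were rarer than others in spleen, with 12.9% to 16.5% of the clonotypes and 4.45% to 5.68% of the frequency, so a higher share among those not listed is favoured by construction. In liver number 1, TRBV26 made up 26.5% ± 3.71 (SD, n = 3) of the frequency of clonotypes not listed in spleen, against 5.25% ± 0.594 of that of clonotypes listed there. The ratio of 5.05 was the highest of the 20 segments, followed by 4.09 for TRBV23 (10.9% against 2.675%), and the other 18 lay between 0.394 and 2.04. The clonotypes listed in spleen thus used TRBV26 at 5.25% in liver number 1, beside 4.86% in the spleens themselves. In absolute terms, the 9.715% of TRBV26 in liver number 1 WT was made of 4.64 percentage points from clonotypes listed in the WT spleen and 5.07 from those not listed. In STAT3ko the parts were 4.85 and 3.33, and in STAT3koPD-1ko 3.92 and 3.196. For TRBV23 in liver number 1, they were 2.76 and 2.37 in WT, 2.32 and 1.04 in STAT3ko, and 1.74 and 1.54 in STAT3koPD-1ko. For liver number 2, most of the frequency was not listed in spleen whatever the segment, and TRBV26 made up 10.02% of it against 8.90% of the listed part, a ratio of 1.13. TRBV23 had a ratio of 4.34 there (4.01% against 0.923%), and the other 18 lay between 0.564 for TRBV16 and 3.21 for TRBV17. TRBV20 and TRBV13-2, which were not called, had 3.02 and 2.66, so in liver number 2 the ratio of TRBV26 lay within the range of segments that were not called. These ratios are descriptions of libraries in which TRBV26 and TRBV23 had been called, with no test, and nothing is read from them.

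**Figure D3:**
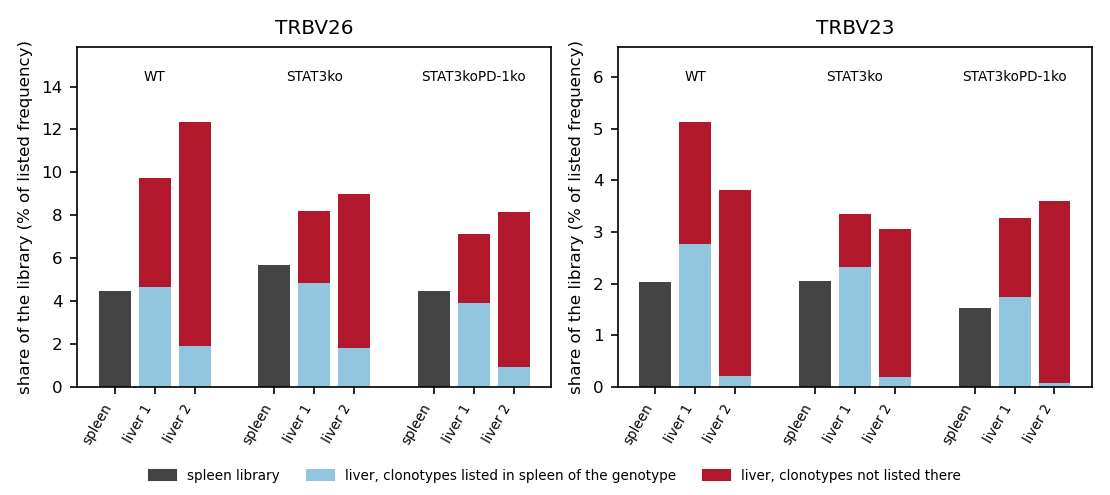
Share of each beta library (% of listed frequency) that used TRBV26 (left) or TRBV23 (right), by genotype, with grey bars for spleen and stacked bars for the 2 liver libraries. The lower part of a stack is from clonotypes listed in the spleen of the genotype and the upper part from those not listed there, which in liver number 1 WT are 4.64 and 5.07 percentage points for TRBV26.

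CD4+ T cells that use certain V beta segments respond to superantigens encoded by mouse mammary tumour viruses in the BALB/c genome, and TRBV26 belongs to these. Of the list of TRBV26, TRBV12-1, TRBV12-2, TRBV15 and TRBV16, 1 of 5 was called, TRBV26 itself, and the median log2 difference was 0.18, beside -0.11 over all 20 tested segments. The remaining 4 gave 0.18 for TRBV12-1 (limma adjusted p = 0.2318), 0.23 for TRBV12-2 (adjusted p = 0.1666), 0.06 for TRBV15 (adjusted p = 0.6132) and -0.17 for TRBV16 (adjusted p = 0.1666). When all segments were tested, with no minimum usage, TRBV16 was called lower at the same value of -0.17 (limma adjusted p = 0.01242). TRBV16, the Vβ11 segment and the most used in spleen, had 18.49%, 16.47% and 16.98% in the spleens, 15.8%, 14.7% and 14.95% in liver number 1, and 16.95%, 14.65% and 15.3% in liver number 2. Its groups overlapped through liver number 2 WT. The 5 segments together made up 29.05% to 30.05% of the frequency in spleen and 30.1% to 36.2% in liver. Among the 15 other tested segments, 1 was called, TRBV23, which is not on that list, and their median was -0.16. Because usage shares sum to a fixed total, the higher shares of TRBV26 and TRBV23 by themselves lower the values of the other segments in these medians. The list was chosen with earlier results of these data known.

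The other V beta segments named by size or usage did not pass when weighted by frequency. TRBV20 had the next largest difference at -0.35 (limma adjusted p = 0.2318), and its liver values of 1.39% to 3.17% enclosed the spleen values of 2.52% to 2.76%. TRBV13-1 and TRBV5, after TRBV16 the most used segments in spleen, gave -0.09 and -0.13 (limma adjusted p = 0.3952 and 0.1666). Both were called lower when each clonotype was counted once, at -0.21 for TRBV13-1 and -0.18 for TRBV5 (limma adjusted p = 0.01028 and 0.009615). TRBV5 was at 8.42%, 9.46% and 11.98% in the WT, STAT3ko and STAT3koPD-1ko spleens and at 7.53%, 9.05% and 10.2% in liver number 1. Each value is 1 library, and liver number 1 shares much of its frequency with these spleens. A difference between genotypes was not tested.

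No J beta segment passed the test. By limma, 0 of 12 TRBJ segments passed (0%) and 0 had an unadjusted p under 0.05. The largest difference was -0.23 for TRBJ1-5 (adjusted p = 0.761). TRBJ1-1 gave 0.11, with 9.825% to 11.03% in spleen, 10.4% to 11.2% in liver number 1 and 11.9% to 12.2% in liver number 2, so that only liver number 2 lay above all spleens. For liver number 1 and for liver number 2 over spleen, 0 of 12 passed (0% in both), with 0 and 1 at an unadjusted p under 0.05. When each clonotype was counted once, 5 of 12 passed in number 2 over spleen, 3 of them higher. Between the liver numbers, 0 of 12 passed (0%), with 2 at an unadjusted p under 0.05 and a lowest limma adjusted p of 0.06793. The segments of the TRBJ1 cluster, which lies with the first D segment, made up 32.6% of the frequency in spleen and 33.2% in liver, and those of the TRBJ2 cluster 67.4% and 66.8%. TRBJ2-7, the most used J segment, had 17.8% to 19.4% in spleen and 16.5% to 19.0% in liver.

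The alpha chain showed no called segment. Of 47 tested TRAV segments, 0 passed in liver over spleen (0%) by limma, with 1 at an unadjusted p under 0.05 and a lowest adjusted p of 0.7674. For liver number 1 over spleen, 0 passed with 0 at an unadjusted p under 0.05, and for number 2 over spleen and number 2 over number 1, 0 passed with 3 each. The largest difference was -0.42 for TRAV11, the segment of the invariant receptor of natural killer T cells. Its usage was 0.720%, 0.631% and 0.583% in the spleens, 0.589%, 0.422% and 0.524% in liver number 1, and 0.519%, 0.504% and 0.247% in liver number 2, so the groups overlapped only through liver number 1 WT. The most used segments were close to equal in both tissues, with log2 differences of 0.01 for TRAV7-5, 0.16 for TRAV7D-2 and 0.14 for TRAV14N-3. TRAV11, TRAV7D-2 and TRAV14N-3 changed sign when each clonotype was counted once, and TRAV7-5 did so when usage was taken as a share of all reads.

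J alpha usage bears on the history of a cell, because the alpha locus can rearrange repeatedly from upstream J segments, with high numbers, to downstream ones. Of 42 tested TRAJ segments, 0 passed in liver over spleen (0%) by limma, with 2 at an unadjusted p under 0.05 and a lowest adjusted p of 0.6766. For number 1 over spleen, number 2 over spleen and number 2 over number 1, 0 of 42 passed, with 1, 2 and 0 at an unadjusted p under 0.05. Without liver number 2 WT, 3 of 41 passed in number 2 over spleen and 1 of 41 in number 2 over number 1. Segments numbered 40 and above made up 25.4% of the frequency in spleen and 25.8% in liver, those numbered 20 to 39 made up 50.7% and 50.6%, and those below 20 made up 23.9% and 23.7%. The median log2 difference was 0.02 in each of the 3 regions and 0.02 over all 42. Single segments moved most at TRAJ9 (-0.32), TRAJ38 (0.32) and TRAJ15 (0.30). TRAJ15 was 3.54%, 3.60% and 2.13% in the spleens and 3.95%, 3.97% and 2.57% in liver number 1, a like order of genotypes, whereas liver number 2 had 4.01%, 3.83% and 4.30%.

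Receptors of unconventional T cells were rare. The 28 clonotypes that joined TRAV11 or TRAV11D to TRAJ18, the combination of invariant natural killer T cells, made up 0.00557%, 0.0300% and 0.000539% of the WT, STAT3ko and STAT3koPD-1ko spleens. In liver number 1 they made up 0.0396%, 0.0604% and 0.00723%, and in liver number 2 they made up 0.0769%, 0.0853% and 0.0207%. Both livers were above the spleen in each genotype, and the ranges of liver and spleen overlapped. The 11 clonotypes joining TRAV1 to TRAJ33, as in mucosal-associated invariant T cells, were at 0.00204% to 0.00558% in spleen and 0.00129% to 0.00315% in liver number 1. In liver number 2 they were at 0.00207% in WT and listed at 0 in STAT3ko and STAT3koPD-1ko. These frequencies are sums of a few low clonotypes and were not tested.

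No CDR3 feature passed its test either. None of 18 measures passed the adjustment, and the lowest adjusted p was 0.2857 by the exact permutation test. The mean CDR3 length, weighted by frequency over complete CDR3, was 13.4 residues in spleen and liver for alpha and 13.7 in both for beta, with differences of 0.0043 and 0.0041 residues (exact permutation test, p = 0.7143 and 0.881). Complete CDR3 leave out TRBV26, whose CDR3 averaged 13.5 residues in spleen and 13.6 in liver once its extra residues were removed. With those kept in, the beta difference was 0.0010 residues (exact permutation test, p = 0.952). CDR3 of at least 16 residues made up 7.47% of the beta frequency in spleen and 6.96% in liver, and 4.62% and 4.41% of the alpha frequency. The mean number of bases between V and J was 2.02 and 2.005 for alpha. In the beta chain, where D bases are counted apart, the bases between segments averaged 2.87 in spleen and 2.85 in liver.

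Only 3 measures had an unadjusted p under 0.05. The net charge of the CDR3 core, which leaves out the first 3 and last 3 residues, was 0.672 in spleen and 0.713 in liver for alpha (exact permutation test, p = 0.0238) and -0.74 and -0.71 for beta (exact permutation test, p = 0.0476). The share of beta CDR3 with an internal cysteine was 6.72% in spleen and 8.44% in liver (exact permutation test, p = 0.0476). TRBV1 carried such a cysteine in 99.9% of its frequency, and the usage of TRBV1 differed by 0.26 on the log2 scale between liver and spleen (limma adjusted p = 0.1511).

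**Figure D4:**
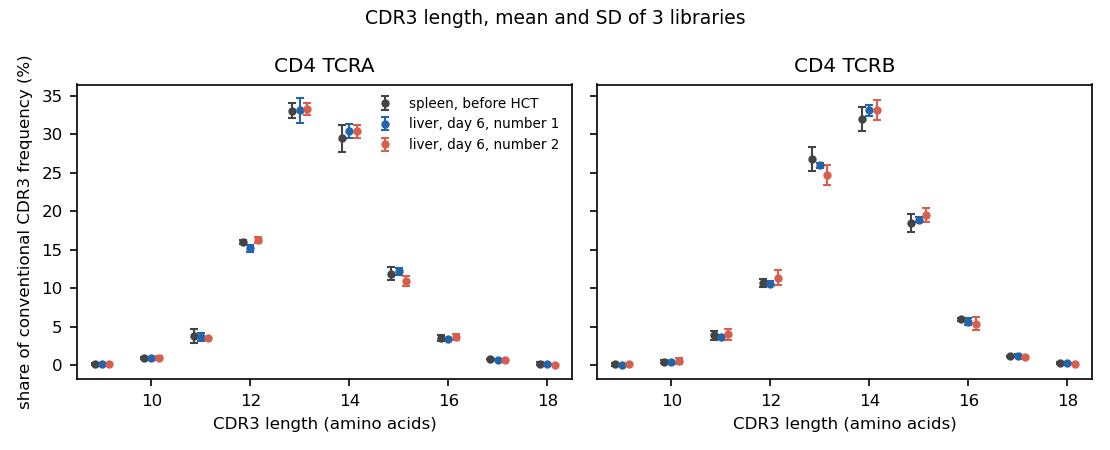
Distribution of CDR3 length (amino acids) as a share of the frequency of complete CDR3 (%), for alpha (left) and beta (right), with points for the mean and bars for the SD of 3 libraries in spleen, liver number 1 and liver number 2. The distributions of the 3 groups lie on each other, with means of 13.4 residues for alpha and 13.7 for beta in both tissues.

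Most of liver number 1 consisted of clonotypes listed in the spleen of its genotype. In the beta chain these made up 81.4%, 88.8% and 85.8% of the frequency of liver number 1 WT, STAT3ko and STAT3koPD-1ko, and 19.0%, 18.9% and 13.5% of liver number 2. Clonotypes listed in no spleen made up a mean of 11.49% of liver number 1 and 68.2% of liver number 2. In the alpha chain, the spleen of the same genotype covered 89.0% ± 2.71 (SD, n = 3) of liver number 1 and 47.8% ± 5.74 (SD, n = 3) of liver number 2. Counted the other way, 73.1% of the beta clonotypes of a spleen were listed in liver number 1 of its genotype and 19.4% in liver number 2. Over clonotypes listed in both, Pearson's correlation of log frequency between spleen and liver of a genotype, over both chains, was 0.47 to 0.66 for number 1 and 0.13 to 0.31 for number 2. These are correlations across clonotypes of 2 libraries, which are not independent replicates.

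The most frequent spleen clonotypes were still listed in liver number 1, but at lower frequency. Of the top 100 beta clonotypes of the spleen, 100, 77 and 100 were listed in liver number 1 of the same genotype in WT, STAT3ko and STAT3koPD-1ko, against 19 to 24 in liver number 1 of another genotype. Of the same 100, 32, 24 and 24 were listed in liver number 2 of the genotype, within the 19 to 33 of another genotype. For alpha, the numbers were 100, 94 and 100 in liver number 1 and 59, 72 and 51 in liver number 2, against 50 to 71 and 54 to 75 in other genotypes. The STAT3ko pair thus had the fewest of its top spleen clonotypes listed in liver number 1, in both chains. These counts depend on the lowest level counted. At 0.01% or more, the mean share listed in the same genotype was 9.0% in beta number 2, and 93.0% and 37.3% in alpha numbers 1 and 2.

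The loss of frequency followed rank. The top 10 beta clonotypes held 4.35% of a spleen and 1.19% of liver number 1 of the genotype, and their median log2 ratio of liver to spleen was -2.43. These 10 included the incomplete TRBV21-TRBJ2-1 entry in each spleen, and without it the top 10 held 4.23% and 0.807% of the whole listed frequency, the entry still counted in the total, with the same median. Those ranked 11 to 100 held 15.3% and 5.26% (median -1.77), and those from there to rank 1000 held 40.4% and 24.3% (median -1.14). Clonotypes beyond rank 1000 held 39.96% of spleen and 54.6% of liver number 1, with a median of 0.35 among those listed in both. In the alpha chain the top 10 went from 4.37% to 1.37%, ranks 11 to 100 from 15.3% to 6.415%, the following ranks up to 1000 from 41.5% to 27.65%, and those beyond rank 1000 from 38.8% to 53.5%. Because the ranks were taken in spleen, a fall of the top and a rise of the rest is favoured by the choice, and the sizes are given as a description with no test. In liver number 2, the top 10 beta clonotypes of the same genotype's spleen held 0.446%, nearly all of it that entry, and without it the top 10 held 0.0089%, beside 0.0189% for spleens of other genotypes. Those ranked 11 to 100 held 0.3505% and those from there to rank 1000 held 2.16% when it was left out, beside 0.241% and 2.22% for the spleen clonotypes of other genotypes.

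**Figure D5:**
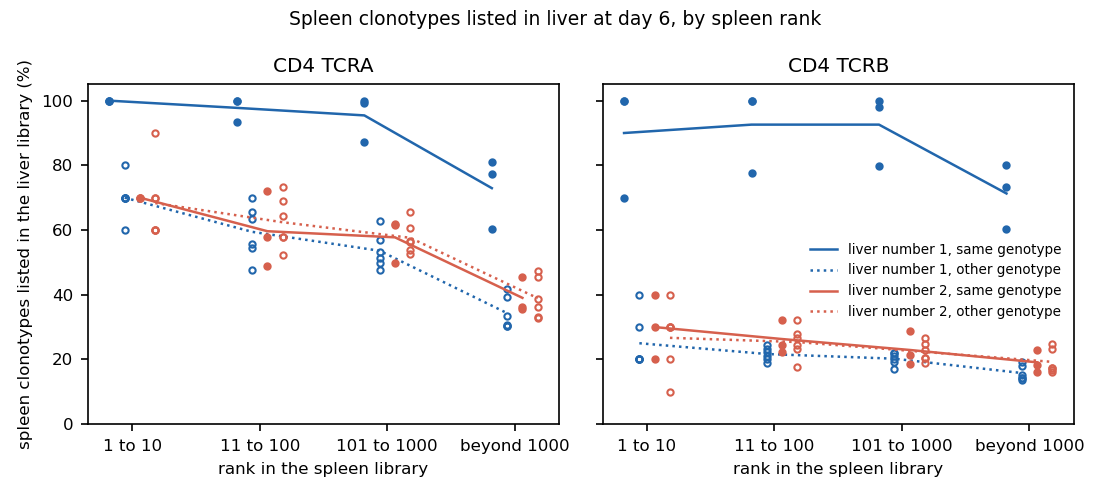
Spleen clonotypes listed in a liver library (%) by their rank in the spleen library, for alpha (left) and beta (right), with points for pairs of libraries, lines for their mean, filled points and solid lines for pairs of the same genotype and open points and dotted lines for other pairs. Only liver number 1 with its own genotype stands apart, with 90.0% of the top 10 and 71.3% of those beyond rank 1000 listed in the beta chain.

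Of the 1000 most frequent beta clonotypes of a spleen, a mean of 618.3 lay within 4-fold of their spleen frequency in liver number 1 of the genotype, 297 were lower by 4-fold or more, 74.3 were listed at 0 and 10.3 were higher by 4-fold or more. The number at 0 was 17 in WT, 205 in STAT3ko and 1 in STAT3koPD-1ko, so that mean rests on the STAT3ko pair. For liver number 2, 767 were at 0, 168.7 were lower, 64.3 were within 4-fold and 0 were higher. The alpha chain gave means of 690.3 within 4-fold, 259 lower, 43 at 0 and 7.67 higher in liver number 1, and of 250.3, 324, 419.7 and 6 in liver number 2. Here too the mean at 0 in liver number 1 rests on STAT3ko, with 121 beside 6 in WT and 2 in STAT3koPD-1ko.

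Single alpha clonotypes show both directions, and several were listed in all 9 libraries. The first 3 sequences head the spleens of WT, STAT3ko and STAT3koPD-1ko, the next heads liver number 1 STAT3ko, and the last, TRAV10-TRAJ22, was the second of the STAT3ko spleen.
TRAV7-5-TRAJ31: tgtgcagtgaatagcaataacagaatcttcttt
TRAV10-TRAJ9: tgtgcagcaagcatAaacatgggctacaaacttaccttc
TRAV7-4-TRAJ27: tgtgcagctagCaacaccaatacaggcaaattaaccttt
TRAV7-5-TRAJ24: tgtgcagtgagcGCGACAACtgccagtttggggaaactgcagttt
TRAV10-TRAJ22: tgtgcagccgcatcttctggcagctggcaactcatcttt
TRAV7-5-TRAJ31, with no base between its segments, held 0.709% of the WT spleen, 0.152% of liver number 1 WT and 0.0430% of liver number 2 WT, and 0.00189% to 0.0422% of the other 6 libraries. The frequency of TRAV10-TRAJ9 was 0.643% in the STAT3ko spleen, 0.0210% in liver number 1 STAT3ko and 0 in liver number 2 STAT3ko. TRAV7-4-TRAJ27 headed both the spleen and liver number 1 of STAT3koPD-1ko, at 0.6955% and 0.348%, and was at 0.0584% to 0.284% in the other 7 libraries. In the opposite direction, TRAV7-5-TRAJ24 was at 0.205% in the STAT3ko spleen and 0.639% in liver number 1 STAT3ko, and at 0 to 0.00426% elsewhere. TRAV10-TRAJ22, also with no base between its segments, was between 0.0901% and 0.507% in all 9 libraries. The clonotypes without such bases can arise in many mice independently, since they are encoded by the segments alone.

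Most of the top 100 clonotypes of liver number 1 ranked below the top 100 of spleen. Of the top 100 beta clonotypes of liver number 1, a mean of 99% were listed in the spleen of the genotype, 24 of them within its top 100, and their median spleen rank was 601.7 (range 273 to 911). Of the top 100 of liver number 2, 21.3% were listed there, a mean of 2 of them within the top 100, the incomplete TRBV21-TRBJ2-1 entry included, and with spleens of other genotypes the share was 21.7%. For alpha, 99.3% of the top 100 of liver number 1 and 69.7% of that of liver number 2 were listed in the same genotype's spleen, and 69.7% of that of liver number 2 in the spleens of other genotypes.

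Clonotypes that went from under 0.001% of reads in spleen to over 0.01% in liver, a rule of the kind used to search for host-reactive clones, were counted for each genotype. In the beta chain there were 226, 293 and 172 in liver number 1 of WT, STAT3ko and STAT3koPD-1ko, which held 4.075%, 5.97% and 3.47% of the liver frequency. Liver number 2 had 1387, 1814 and 1789, which held 37.8%, 47.6% and 58.1%. When a liver was set against spleens of other genotypes, the same rule found 1620 to 1862 clonotypes in liver number 1 and 1437 to 1914 in liver number 2. The count in liver number 2 against its own genotype therefore lay within the range found for unrelated pairs, or just under it for WT. The reverse rule, over 0.01% in spleen and under 0.001% in liver, gave 131, 434 and 52 clonotypes for liver number 1 and 1514, 1463 and 1768 for liver number 2. As a share of the clonotypes over 0.01% in the library of departure or arrival, the rule took a mean of 11.4% of liver number 1 and the reverse rule 11.2% of its spleen, so the mean shares were close in both directions, although the reverse share ranged from 2.501% to 24.35% over the genotypes. For liver number 2 the means were 84.8% and 82.0%.

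In the alpha chain the rule again found fewer clonotypes in liver number 1 than in liver number 2 of each genotype, with 200, 212 and 161 clonotypes from low in spleen to high in liver number 1 and 1002, 1206 and 1422 in liver number 2. The reverse rule found 109, 355 and 54 and then 993, 965 and 1308. Among the beta clonotypes that went from low to high in liver number 1, TRBV26 made up a mean of 8.48% and TRBV23 of 7.42%, against 4.58% and 2.175% of those that went from high to low. With liver number 2, TRBV26 made up 4.79% of the clonotypes from low to high and 3.175% of the reverse, and TRBV23 2.62% and 1.41%. These shares are read beside those of all clonotypes over 0.01%, which alone could meet the rule. Of these, TRBV26 made up 4.28% in liver number 1, 4.72% in liver number 2 and 3.23% in spleen, and TRBV23 made up 2.98%, 2.27% and 1.19%. For liver number 2 the shares among clonotypes from low to high were therefore near those of all its clonotypes over 0.01%. None of these shares was tested, since both segments were chosen by their usage in the same libraries.

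Clonotypes that were at 0 in all spleens yet shared by most livers held little of the frequency. In the beta chain 447 clonotypes were at 0 in the 3 spleens and listed in at least 4 of the 6 livers, and they held 0.494% to 0.721% of liver number 1 and 1.497% to 1.81% of liver number 2. The 602 such alpha clonotypes held 0.593% to 0.777% and 1.81% to 2.91%. The most frequent of these by mean over the livers were TRBV14-TRBJ2-7 and TRBV29-TRBJ2-3 for beta and TRAV17-TRAJ44 and TRAV8D-1-TRAJ27 for alpha.
TRBV14-TRBJ2-7: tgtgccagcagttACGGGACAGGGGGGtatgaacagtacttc
TRBV29-TRBJ2-3: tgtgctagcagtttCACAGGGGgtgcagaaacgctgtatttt
TRBV14-TRBJ2-7 held 0.125% of liver number 2 WT and 0.000587% of liver number 1 WT, and 0.00282% and 0.00111% of liver number 2 STAT3ko and STAT3koPD-1ko. TRBV29-TRBJ2-3 was listed in 5 livers, from 0.00138% in liver number 2 WT to 0.0922% in liver number 2 STAT3koPD-1ko. Each was thus highest in a single liver library, and reached at most 0.0164% in the others.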

How the data were processed

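Per the study's methods, RNA from equal numbers of sorted cells was amplified with a 5′ mouse TCR alpha and beta kit, sequenced as paired 300-base reads on a MiSeq, and assembled into CDR3 clones with MiXCR at default settings (mm10 per the labels). The authors joined the libraries, which came from 2 batches of pooled mice, with VDJtools and deposited, for each clonotype, the fraction of a library's reads. All 60 columns of the 4 tables, 15 per table, were matched to a sample by name (0 columns were left over). Of each CD4 table the 9 spleen and liver columns were compared, and neither the 6 gut columns nor the other 3 of the 18 joined libraries are analysed here. The clonotype of a joined table is its CDR3 amino acid sequence, so the V, J and nucleotide sequence given are those of 1 representative.

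Fractions were read as percent and divided by the listed total of the library. V and J segments with a mean usage of 0.5% or more were tested as log2(percent + 0.1) with limma 3.58.1 (R 4.3.3), genotype as a term and Benjamini-Hochberg adjustment within table and contrast. Fold changes are on that scale. Liver numbers 1 and 2 were compared in 1 fit with 3 groups. Values of 1 per library were tested by exact two-sided permutation (Python 3.11.15), adjusted over 14 rank or 18 CDR3 measures of both chains. The p-values measure the spread between these pooled samples. The limma procedure was tested on simulated usage, and the permutation test on small sets of values with a known answer. Named segments were those called, the 3 most used in spleen, the 3 with the largest change where fewer than 3 were called, and fixed lists. Named clonotypes were the most frequent of each library, the top 3 of each spleen, and those most frequent in liver and at 0 in spleen. The members and lists were chosen with earlier results of these data known. Coordinates are from GENCODE vM21 (GRCm38). Alternatives covered the pseudocount, filters, listing, weighting, genotype term, replicate block and each library left out.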

Additional observations from a re-analysis of the deposited data

Results flagged for a closer look

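In 59 groups of 6 liver libraries, the highest or lowest library was set against the range of the group, and 5 were farther from the rest than Dixon's 95% critical value allows, where chance flags about 1 in 20 groups. TRBV23 usage in liver number 1 WT was 5.13%, beside 3.05% to 3.82% in the other 5 livers, and all 6 lay above the spleens. TRAJ15 usage in liver number 1 STAT3koPD-1ko was 2.57%, beside 3.83% to 4.30% in the others. Beta CDR3 of at least 16 residues made up 5.63% in liver number 2 WT, beside 6.93% to 7.66%. In liver number 2 STAT3koPD-1ko, TRBJ1-3 usage was 5.14%, beside 6.16% to 6.54%, and TRBJ2-7 usage was 16.5%, beside 18.1% to 19.0%.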

How the results depend on the processing

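Of 954 recomputed values of 57 results, 890 were counted as kept. For differences this meant the same direction and side of the threshold, and for listed shares a move of less than the replicate spread. For counts of called segments it meant an equal or near count, whichever segments were called. With each clonotype counted once, TRBV segments called were 12 in liver over spleen, 8 for number 1 and 12 for number 2, TRBJ segments called in number 2 over spleen were 5, and TRAV11 (0.0210), TRAV17 (0.0323), TRAV7D-2 (-0.00866), TRAV14N-3 (-0.0779) and TRAJ9 (0.0947) changed sign. With complete CDR3 only, which leaves out TRBV26 by construction, 1 TRBV segment was called in liver over spleen and 1 in number 1 over spleen, and 1 TRBJ segment in number 2 over number 1. With clonotypes in at least 3 libraries, 1 TRBV segment was called in number 2 over spleen (TRBV23 at 0.70, limma adjusted p = 0.05121, and TRBV29 at -0.44, adjusted p = 0.05188, were lost), 1 TRBJ segment in number 2 over number 1, TRBJ2-7 changed sign (0.0145), as did TRAV7-5 (-0.00571) and the beta length difference (-0.0067 residues). As a share of all reads, TRAV7-5 was at -0.000951. With all CDR3, the beta length difference was 0.886 residues (exact permutation test, adjusted p = 0.0429), since each TRBV26 CDR3 then counts 21 residues more. Taken alone, liver numbers 1 and 2 gave 0.64 and 0.93 (alpha) and 0.76 and 1.19 (beta) for the log2 ratio of clonotypes holding 50%, and number 2 gave length differences of -0.0063 (alpha) and -0.0088 (beta). Counting top 100 spleen clonotypes only at 0.01% or more gave 93.0% and 37.3% listed in alpha liver numbers 1 and 2 and 9.0% in beta number 2. The cause of these changes was otherwise not tested.

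Leaving out 1 library at a time gave 2 to 3 called TRBV segments in liver over spleen, 1 to 3 in number 1 over spleen (1 without liver number 1 WT), 2 to 3 in number 2 over spleen, and 0 to 1 in number 2 over number 1 (1 without liver number 2 STAT3ko or STAT3koPD-1ko). Called TRAJ segments were 0 to 3 in number 2 over spleen and 0 to 1 in number 2 over number 1, the highest without liver number 2 WT. Called TRBJ segments were 0 to 1 in number 1 over spleen (1 without liver number 2 WT) and 0 to 1 in number 2 over number 1 (1 without liver number 2 STAT3ko). The log2 ratio of clonotypes holding 50% was 0.68 to 0.86 for alpha and 0.84 to 1.07 for beta, the length difference -0.011 to 0.017 residues for alpha and -0.013 to 0.019 for beta, and the listed share of the top 100 was 97% to 100% and 55.0% to 65.5% for alpha numbers 1 and 2 and 88.5% to 100% and 24.0% to 28.0% for beta. Over the same settings the sign varied for TRAV7-5 (-0.0537 to 0.114), TRAJ31 (-0.0914 to 0.133), TRAJ37 (-0.127 to 0.0519) and TRBJ2-7 (-0.0486 to 0.00623).

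Spleens carry number 1 alone, so a fit with the replicate number as a block equals liver number 1 over spleen: it called 2 TRBV segments and 0 of the other kinds, with TRAJ37 at 0.0402 and TRBJ2-7 at 0.0126 in place of lower values. The difference of liver number 2 minus number 1 correlated between genotypes at -0.289 to 0.447 over segments, and number was not used as a pairing term. These correlations concern segment usage alone and cannot show whether a number marks a common batch or donor source. Joining on the CDR3 amino acids alone gave no other value, since the tables are already joined so. The unknown depth and the omission of clonotypes seen in 1 library limit all counts of shared and unlisted clonotypes: a clonotype listed at 0 may lie below the lowest listed values of 0.000245% to 0.000342% for alpha and 0.000393% to 0.000537% for beta.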
